A study of Mus musculus with 20 samples.

Results

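The Cyp3a enzymes are a family of cytochrome P450 proteins of the endoplasmic reticulum, described here by the mRNA of 8 mouse genes taken by symbol: Cyp3a11, Cyp3a13, Cyp3a16, Cyp3a25, Cyp3a41a, Cyp3a41b, Cyp3a44 and Cyp3a59. All 8 were among the 36128 genes with FPKM values (sequenced fragments relative to the length of the exons and the size of the library), and all but Cyp3a41b were in the gene count tables, which list 25690 genes for B6 and 24722 for CAST. PolyA RNA was sequenced from the livers of 20 mice at 8 weeks of age, 5 males and 5 females each of C57BL/6J (B6), a laboratory inbred strain, and of CAST/EiJ (CAST), a wild-derived inbred strain, with 1 library per mouse. B6 and CAST are each a single inbred genotype, so the replicates within a group share their genome. The strain field of the sample records contradicts the titles for 10 of the livers (all B6 females and all CAST males). The titles, which put 5 livers in each group, were followed.

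Cyp3a enzymes oxidize steroids, bile acids and a wide range of drugs, using electrons passed on by P450 oxidoreductase, and they are among the most abundant drug-metabolizing enzymes of hepatocytes. Their genes respond to the xenobiotic receptors PXR (Nr1i2) and CAR (Nr1i3), which bind DNA together with RXR, and rest on hepatocyte factors such as HNF4A and C/EBP. In mice several members differ between the sexes through the sex-dependent pattern of growth hormone secretion, which acts on liver through STAT5 and on regulators such as the male-biased repressor BCL6 and the female-specific CUX2.

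Of the 8 genes, 7 lie in 1 cluster on chromosome 5, together with Cyp3a57, and all 8 have 13 exons in the annotated transcript used. In the mm9 build the cluster spans chr5:146106148-146924861, 818.7 kb in all, and Cyp3a13 (chr5:138334160-138362847) lies 7.74 Mb away from it. From left to right the members of the cluster are Cyp3a16 (chr5:146197178-146230592), Cyp3a41b (chr5:146319544-146345599), Cyp3a41a (chr5:146505635-146531712), Cyp3a44 (chr5:146585559-146617450), Cyp3a11 (chr5:146666002-146691540), Cyp3a25 (chr5:146788770-146821194) and Cyp3a59 (chr5:146890834-146924861). Cyp3a59 is on the plus strand and the other 7 members are on the minus strand.

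The coding sequences fall into groups of close copies, which bears on how reads of 50 nt are assigned. Cyp3a41a and Cyp3a41b differ at 2 of 1515 coding bases (99.9% identity), and Cyp3a41a and Cyp3a44 share 95.8% of bases. Cyp3a11 shares 94.9 to 95.2% with Cyp3a41a, Cyp3a41b and Cyp3a44. Cyp3a16 shares 92.4 to 92.8% with Cyp3a11, Cyp3a41a, Cyp3a41b and Cyp3a44. By coding sequence Cyp3a11 is thus closer to Cyp3a41a, Cyp3a41b and Cyp3a44 than Cyp3a16 is. Cyp3a25 and Cyp3a59 share 97.5%, and Cyp3a13 stands apart with at most 76.5% identity to any other member. Of the 50-base stretches within the exons of Cyp3a41a, 12 of 1412 (0.850%) occur once in the mm9 genome, against 94 of 1416 (6.64%) for Cyp3a41b. The share is 69.0% for Cyp3a59, 71.7% for Cyp3a25, 73.3% for Cyp3a44, 85.6% for Cyp3a11, 88.1% for Cyp3a16 and 100% for Cyp3a13. The authors kept uniquely mapped reads, so a read pair that lies wholly within stretches shared by both Cyp3a41 genes was left out.

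The 250 bases upstream of the start site are shown for 4 genes to set the female-biased copies beside Cyp3a11, which is not female-biased, with 2 short motifs marked. The sequences are those of RefSeq on GRCm38.p6, a later build than that of the count files, read 5′ to 3′ on the minus strand of the genome, at chr5:145879855-145880104 for Cyp3a11, chr5:145469724-145469973 for Cyp3a16, chr5:145720137-145720386 for Cyp3a41a and chr5:145805875-145806124 for Cyp3a44. Capitals mark ATCAAT, a core bound by HNF6 and CUX2, and CAAAGTCCA, a core bound by HNF4A.
Cyp3a11: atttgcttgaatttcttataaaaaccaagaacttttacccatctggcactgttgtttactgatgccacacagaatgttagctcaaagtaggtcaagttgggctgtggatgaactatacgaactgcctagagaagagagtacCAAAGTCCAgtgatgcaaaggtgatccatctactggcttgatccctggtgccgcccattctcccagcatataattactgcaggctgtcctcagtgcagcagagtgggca
Cyp3a16: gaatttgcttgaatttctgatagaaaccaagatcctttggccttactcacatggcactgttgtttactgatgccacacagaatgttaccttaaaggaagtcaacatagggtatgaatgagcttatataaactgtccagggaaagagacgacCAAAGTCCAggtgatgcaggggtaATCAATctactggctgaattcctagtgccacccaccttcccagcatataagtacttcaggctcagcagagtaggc
Cyp3a41a: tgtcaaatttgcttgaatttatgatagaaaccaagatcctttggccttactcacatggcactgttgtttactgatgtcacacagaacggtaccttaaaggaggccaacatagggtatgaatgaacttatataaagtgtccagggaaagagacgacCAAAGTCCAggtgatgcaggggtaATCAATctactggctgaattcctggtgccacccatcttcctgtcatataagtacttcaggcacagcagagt
Cyp3a44: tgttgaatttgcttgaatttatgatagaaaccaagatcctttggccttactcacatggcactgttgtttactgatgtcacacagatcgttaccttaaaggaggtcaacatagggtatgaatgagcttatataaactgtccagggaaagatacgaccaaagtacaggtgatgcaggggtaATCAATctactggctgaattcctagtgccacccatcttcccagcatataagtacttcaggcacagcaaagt

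All 8 members were matched among 27025 promoters, and both strands were searched. ATCAAT was found in Cyp3a16 (75 to 70 bases upstream) and in Cyp3a41a, Cyp3a41b and Cyp3a44 (71 to 66 bases upstream), and not in the windows of Cyp3a11, Cyp3a13, Cyp3a25 and Cyp3a59. Of all promoters of this length, 6.97% held it. CAAAGTCCA was found in Cyp3a11 (109 to 101 bases upstream), Cyp3a16 (99 to 91) and both Cyp3a41 genes (95 to 87), and not in Cyp3a44, against 0.381% of all promoters. Of the other letters searched, TATAAA (13% of promoters) was found in Cyp3a11, Cyp3a16, Cyp3a41a, Cyp3a41b and Cyp3a44, TTGCNNAA for C/EBP (9.55%) in Cyp3a25, and ATCGAT (0.729%) and TTCNNNGAA for STAT5 (7.18%) in no member. No 2 of the motifs overlapped one another in these windows. Over these windows Cyp3a16 shared 95.9% of bases with Cyp3a44 and 93.9% with Cyp3a41a, and Cyp3a11 shared 76.2 to 77.5% with the same genes.

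Counts per liver summed to between 7969482 and 35328573, and the median was highest in CAST females (22974697). No library of a group was a copy of another, as any 2 livers of a group differed with a chi-square of at least 8.82 per degree of freedom. Hepatocyte markers were abundant in every liver, with a summed FPKM of Alb, Apoa1, Ttr, Cps1 and Serpina1a of 19074 to 20132 and 24164 to 29541 in B6 males and females, and 16227 to 17752 and 19322 to 25097 in CAST males and females. Markers of Kupffer cells, the liver macrophages, moved with strain: 4 of 4 (Clec4f, Adgre1, Cd5l, Vsig4) were called higher in B6 in each sex, against 13.4% of all genes in males and 13.9% in females, with a summed FPKM of 12.1 to 23.3 and 29.3 to 33.8 in B6 males and females, and 4.28 to 11.3 and 6.89 to 23.2 in CAST males and females. All 4 were also higher in B6 females than in B6 males at an adjusted p under 0.05 (3.56% of all genes), none of them 2-fold. The stellate cell markers Dcn, Lrat and Reln were higher in B6 females than in B6 males at an adjusted p under 0.05, and Lrat and Reln in CAST females, none of them 2-fold, and Dcn was higher in CAST than B6 males (log2 -0.35, adjusted p = 0.0131). Dcn had an FPKM of 13.1 to 20.6 and 25.4 to 27.2 in B6 males and females, and 21 to 25.9 and 21.4 to 32.9 in CAST males and females. Of the endothelial markers (Stab2, Pecam1, Kdr, Clec4g), 2 of 4 were higher in B6 females at that threshold, with sums of 13.2 to 17 and 18.3 to 23.1 in B6 males and females, and 9.97 to 15.5 and 12.1 to 30.7 in CAST males and females. Lymphocyte markers were called higher in B6 in each sex for 3 of 4 (Cd3e, Ms4a1, Nkg7, not Cd79a), against the same shares of all genes, at sums of 0.373 to 0.670 and 0.381 to 1.79 in B6 males and females, and 0 to 0.389 and 0.126 to 0.386 in CAST males and females. The part of these cells in the results below was not tested. In RNA of whole liver, fewer cells of a type and less RNA per cell cannot be told apart. The 2 strains were mapped to separate genomes, mm9 and a CAST version of it, so a difference between strains and a difference of mapping cannot be told apart either.

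Cyp3a11 and Cyp3a25 together held most of the Cyp3a mRNA, and their balance differed between the strains. Over the 8 genes the summed FPKM was 1459 ± 111 (SD, n = 5, as for all group values) and 1140 ± 184 in B6 males and females, and 1629 ± 460 and 1228 ± 87.6 in CAST males and females. Cyp3a11 made up 84.6 ± 1.55% of this sum in B6 males and 79.8 ± 2.29% in B6 females, but 54.3 ± 8.67% in CAST males and 28.3 ± 3.95% in CAST females. Cyp3a25 made up 12.8 ± 1.39% and 14.1 ± 2.03% in B6 males and females, and 43.4 ± 8.14% and 58.6 ± 4.72% in CAST males and females. Neither share overlapped between the strains in either sex. The summed share of Cyp3a16, Cyp3a41a, Cyp3a41b and Cyp3a44 was 0.0141 ± 0.0064% and 1.5 ± 0.55% in B6 males and females, and 0.163 ± 0.060% and 8.85 ± 1.21% in CAST males and females. Cyp3a13 and Cyp3a59 each stayed under 3% on average in every group. Shares of FPKM compare mRNA per length, rest on uniquely mapped reads and say nothing of protein.

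**Figure D1:**
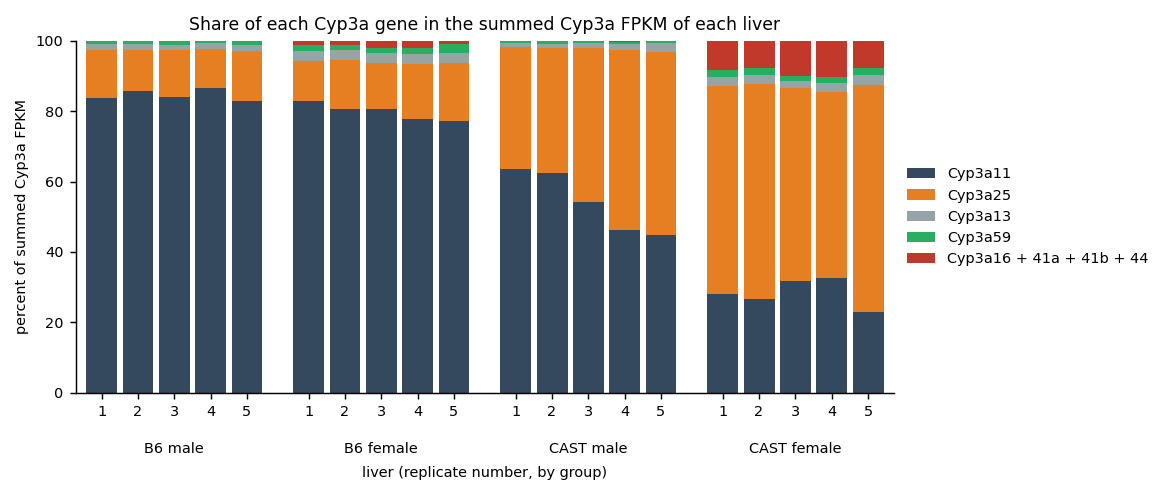
Share of each Cyp3a gene in the summed Cyp3a FPKM (percent, vertical axis) of each of the 20 livers (horizontal axis, by group and replicate number), with Cyp3a16, Cyp3a41a, Cyp3a41b and Cyp3a44 drawn as 1 segment. Cyp3a11 fills 84.6% of the bar on average in B6 males and 28.3% in CAST females, where the segment of the 4 close copies is widest.

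The members were tested for sex within each strain with the quasi-likelihood test of edgeR, p-values being adjusted by Benjamini-Hochberg across the whole table. Fold changes are males over females, and a gene was called when it differed by more than 2-fold with an adjusted p under 0.05. In B6, 3 of the 7 members in the count table were called (Cyp3a16, Cyp3a41a and Cyp3a44), all higher in females, against 2.40% of all 25690 genes called and 1.24% called higher in females. The FPKM of males and females did not overlap for 4 members, against 6.89% of all genes. In counts per library size the sexes overlapped for Cyp3a11 and Cyp3a16 among these. In CAST, 5 of 7 members were called, against 2.05% of all 24722 genes: Cyp3a16, Cyp3a41a, Cyp3a44 and Cyp3a59 higher in females (1.17% of all genes) and Cyp3a11 higher in males (0.882%). The FPKM of those same 5 did not overlap between the sexes in CAST, against 5.81% of genes. The median log2 fold change of the 7 members was -0.49 in B6 and -1.29 in CAST, against 0.02 and -0.01 over all genes.

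Strain was tested within each sex, B6 over CAST, in 1 fit of the 20 livers and 25779 genes. In males 2 of 7 members were called, Cyp3a25 and Cyp3a41a, both higher in CAST, against 23.8% of all genes called and 10.4% called higher in CAST. In females 4 of 7 were called, Cyp3a25, Cyp3a41a and Cyp3a44 higher in CAST and Cyp3a11 higher in B6, against 24.4% of all genes called, 10.4% higher in CAST and 13.9% higher in B6. The FPKM of the groups did not overlap for 3 members in males and 3 in females, against 26.5% of genes in each. Median log2 fold changes of the members were 0.00 in males and -0.19 in females, against 0.07 and 0.00 over all genes. The share of members called for strain in males was thus near the background. The difference of the sex bias between the strains, the interaction, passed an adjusted p of 0.05 for 1 of 7 members, Cyp3a41a, against 2.28% of all genes.

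**Figure D2:**
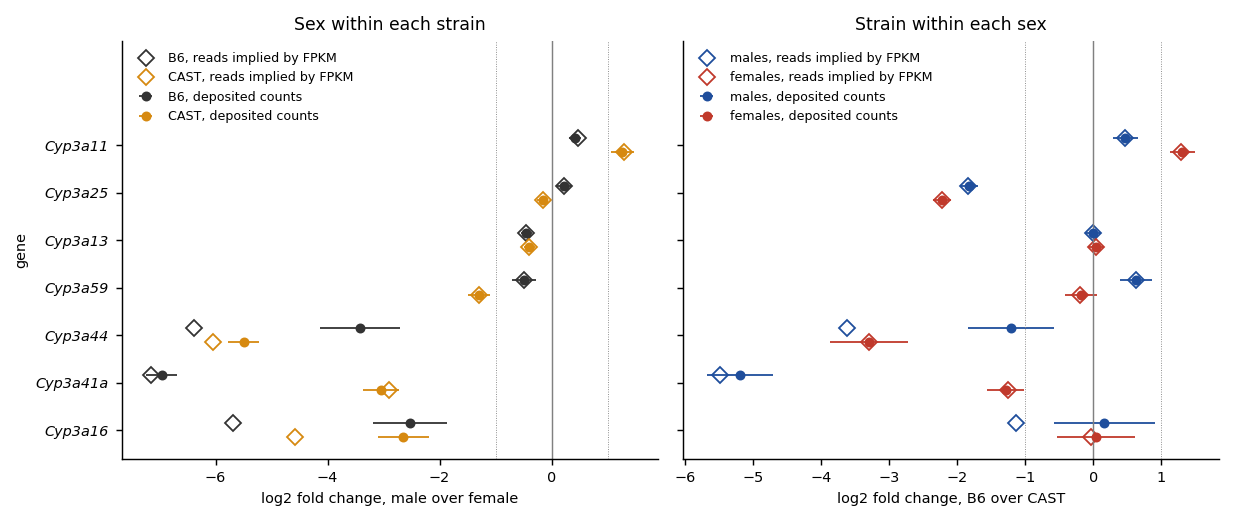
Log2 fold change of each of the 7 tested Cyp3a genes for sex (male over female, in B6 and in CAST) and for strain (B6 over CAST, in males and in females), with bars for the SE of edgeR's fit, dotted lines at a fold change of 2, and open diamonds for the same fit on the reads implied by the FPKM values. Cyp3a41a, Cyp3a44 and Cyp3a16 lie on the female side in both strains, and the open diamonds of Cyp3a44 and Cyp3a16 in B6 lie farther to that side than the fitted counts.

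Cyp3a11 is the counterpart of the human drug-metabolizing enzyme CYP3A4 and the classical gene induced through PXR. In B6 males its FPKM was 1071, 1315, 1313, 1285 and 1189 in livers 1 to 5, and in B6 females 966, 693, 899, 918 and 1062. In CAST males it was 1344, 1311, 748, 678 and 487, and in CAST females 347, 306, 376, 447 and 270. CAST males spread widely, with livers 1 and 2 at the level of B6 males and liver 5 near the highest CAST female, while no B6 female reached the lowest B6 male in FPKM (in TMM-scaled CPM, that is counts per library size, B6 female 5 was at 5106 and B6 male 1 at 5090.5). The group means were 1235 ± 105 in B6 males, 914 ± 390 in CAST males, 908 ± 135 in B6 females and 349 ± 67.9 in CAST females, and the 2 groups in the middle did not differ beyond their spread.

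Males exceeded females in Cyp3a11 by 2.40-fold in CAST (log2 1.26 ± 0.20 SE, edgeR adjusted p = 0.000521), a call. In B6 the difference was 1.33-fold (log2 0.41 ± 0.10, adjusted p = 0.0179), under the fold threshold. Between strains, B6 females exceeded CAST females 2.48-fold (log2 1.31 ± 0.19, adjusted p = 1.26e-06), and B6 males exceeded CAST males 1.38-fold (log2 0.47 ± 0.18, adjusted p = 0.0428), with overlapping livers. The interaction was -0.84 ± 0.26 on the log2 scale with an adjusted p of 0.0903, so a difference of the sex bias between the strains was not called. It passed without CAST male 5 (-0.99, adjusted p = 0.0195) or without CAST female 4 (-0.98, adjusted p = 0.0395), with DESeq2 (-0.88, adjusted p = 0.0215) and with library size alone in edgeR (-0.96, adjusted p = 0.0492).

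Cyp3a25, the other major Cyp3a mRNA of adult liver, was called for strain in both sexes and for sex in neither strain. Its FPKM was 173, 177, 207, 166 and 207 in B6 males and 133, 120, 146, 188 and 224 in B6 females. It was 733, 750, 604, 747 and 561 in CAST males and 734, 706, 651, 729 and 765 in CAST females. Every CAST liver was above every B6 liver, while males and females overlapped within each strain. CAST exceeded B6 by 4.68-fold in females (log2 -2.23 ± 0.13, edgeR adjusted p = 4.48e-14) and by 3.56-fold in males (log2 -1.83 ± 0.13, adjusted p = 2.50e-12). For sex the log2 fold change was 0.22 ± 0.14 in B6 (adjusted p = 0.380) and -0.16 ± 0.10 in CAST (adjusted p = 0.413), and for the interaction 0.39 ± 0.18 (adjusted p = 0.317).

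Cyp3a13, the member outside the cluster, is expressed in intestine as well as liver, and varied least. Its FPKM ranged from 22 to 26.1 and 24.5 to 38.9 in B6 males and females, and 20.5 to 28.1 and 25 to 31.8 in CAST males and females. Females exceeded males by 1.37-fold in B6 (log2 -0.45 ± 0.10, adjusted p = 0.00760) and by 1.32-fold in CAST (log2 -0.40 ± 0.10, adjusted p = 0.0219), both under the fold threshold and with overlapping livers. Between the strains it differed by a log2 of 0.00 ± 0.11 in males (adjusted p = 1) and 0.04 ± 0.10 in females (adjusted p = 0.801).

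Cyp3a59, the close copy of Cyp3a25 on the other strand, was called for sex in CAST and for strain in neither sex. In CAST males its FPKM was 11.9, 13.1, 6.035, 11.7 and 5.49, and in CAST females 24.5, 22.1, 14.8, 26.6 and 24.3, so the lowest female was above the highest male. Females were 2.45-fold higher (log2 -1.29 ± 0.20, edgeR adjusted p = 0.000264). B6 males ranged from 10.8 to 18.6 and B6 females from 13 to 18.5 but for female 5 at 36.3, with a log2 of -0.49 ± 0.21 (adjusted p = 0.196). The strain difference was 0.63 ± 0.24 in males (adjusted p = 0.0362, under the fold threshold) and -0.19 ± 0.23 in females (adjusted p = 0.552). The interaction, 0.81 ± 0.33 (adjusted p = 0.236), passed at 1.12 (adjusted p = 0.0385) without B6 female 5.

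Cyp3a44, a female-predominant enzyme, had the highest mean deposited FPKM of the 4 close copies in each group. In CAST males, however, Cyp3a41a would exceed it on its own transcript length (2.1 against 1.55). The order also rests on uniquely mapped reads: 0.850% of the exonic 50-base stretches of Cyp3a41a occur once in mm9, against 73.3% for Cyp3a44. How the order would stand with the reads left out was not tested. The FPKM of Cyp3a44 was 0.185, 0.0684, 0.225, 0.138 and 0.0247 in B6 males and 9.55, 6.59, 13.7, 16.3 and 7.76 in B6 females. It was 1.42, 2.43, 0.650, 2.24 and 1.02 in CAST males and 88.3, 82.1, 114, 126 and 85.3 in CAST females. In FPKM the 4 groups did not overlap at any step of the order B6 males, CAST males, B6 females, CAST females. In TMM-scaled CPM, B6 male 4 (20.3) was above the highest CAST male (18.3). In CAST females Cyp3a44 reached 8.04% of the Cyp3a sum in FPKM.

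In the counts, Cyp3a44 was higher in females by 45.3-fold in CAST (log2 -5.50 ± 0.27, edgeR adjusted p = 1.02e-10) and by 10.7-fold in B6 (log2 -3.42 ± 0.71, adjusted p = 0.00546). Without B6 male 4 the log2 fold change of Cyp3a44 in B6 was -5.77 (adjusted p = 1.22e-08). CAST females exceeded B6 females 9.81-fold (log2 -3.29 ± 0.58, adjusted p = 3.15e-05). In males the strain difference in counts, -1.21 ± 0.63 (adjusted p = 0.134), was not called. It was called without B6 male 4 (-3.56, adjusted p = 1.42e-07) and in each of the 4 limma fits of the FPKM (-1.13 to -3.63). The interaction was 2.09 ± 0.83 (adjusted p = 0.222), and it passed by limma on log2(FPKM + 1) (2.01, adjusted p = 0.00105).

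Cyp3a41a, whose enzyme is known as female-specific in adult mouse liver, had the largest fitted sex difference of any member in B6 in the counts, while by limma on log2(FPKM + 0.1) that of Cyp3a44 was larger (-5.58 against -4.76). Its FPKM was 0.0220, 0.0217, 0, 0.0418 and 0.0235 in B6 males, from 4 to 7 counts each (5 in the liver at 0), and 4.10, 2.57, 4.79, 3.13 and 2.02 in B6 females. It was 1.62, 1.37, 0.459, 1.36 and 0.421 in CAST males and 12.8, 6.17, 4.05, 9.59 and 4.34 in CAST females. B6 males stood near 0, while all CAST males were above all B6 males, and the 2 female groups overlapped.

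Females exceeded males in Cyp3a41a by 125-fold in B6 (log2 -6.96 ± 0.28, edgeR adjusted p = 5.03e-12) and by 8.26-fold in CAST (log2 -3.05 ± 0.32, adjusted p = 2.54e-06). The interaction was -3.90 ± 0.59 (adjusted p = 0.000212), so the sex difference was larger in B6 on the log2 scale of counts. CAST exceeded B6 in males by 36.6-fold (log2 -5.19 ± 0.48, adjusted p = 5.20e-10) and in females by 2.44-fold (log2 -1.29 ± 0.28, adjusted p = 0.000387). By limma the call in females was lost on log2(FPKM + 0.01) (-1.08, adjusted p = 0.0721), and both calls fell under the fold threshold on log2(FPKM + 1) (1.94-fold in males, 1.85-fold in females). On the log2(FPKM + 1) scale in limma, which compresses values near 0, the interaction was -0.07 (adjusted p = 0.948), against -2.01 to -4.23 under the other alternatives.

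The level of Cyp3a41a against the other members depends on the length used for scaling and on the reads left out as not unique. The deposited FPKM implies an exon length of 4124 bases, where the annotated transcript has 2049 and the transcripts of Cyp3a41a and Cyp3a41b have 4102 together. On its own transcript length its mean FPKM would be 2.01 times as high, 0.0439 ± 0.0298 and 6.69 ± 2.27 in B6 males and females, and 2.1 ± 1.13 and 14.9 ± 7.57 in CAST males and females. The cause of the length difference was not tested. Fold changes of the Cyp3a41a counts between groups are not touched by it. The limma values, which add a constant to the FPKM, and the summed FPKM of the close copies do depend on it. For Cyp3a11 the deposited FPKM implies 1965 bases, where the annotated transcript has 2344. On that length the FPKM and share of Cyp3a11 would be lower. Cyp3a41b was listed at an FPKM of 0 in all 20 livers and was in neither count table, so Cyp3a41a and Cyp3a41b cannot be told apart here.

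Cyp3a16, best known from fetal and neonatal liver, was low in every group and female-biased. Its FPKM was 0.0315, 0.0517, 0.0450, 0.114 and 0.0280 in B6 males and 2.03, 0.606, 3.35, 6.32 and 2.1 in B6 females. It was 0.209, 0.156, 0.0956, 0.0465 and 0.0591 in CAST males and 3.04, 1.73, 1.77, 4.95 and 2.39 in CAST females. In FPKM every female was above every male, and the strains overlapped within each sex. In TMM-scaled CPM, B6 female 2 (2.60) was below B6 male 2 (4.73) and B6 male 3 (5.22). In the counts females were 6.26-fold higher in CAST (log2 -2.65 ± 0.46, edgeR adjusted p = 0.00100) and 5.77-fold higher in B6 (log2 -2.53 ± 0.66, adjusted p = 0.0240). The B6 call was lost without B6 female 3 (adjusted p = 0.0546), without B6 female 4 (0.0817) and with DESeq2 (0.0720). The log2 fold change of Cyp3a16 was -3.15 in B6 without B6 male 2, and -3.34 in CAST without CAST male 1. The strain differences were 0.16 ± 0.75 in males (adjusted p = 0.900) and 0.04 ± 0.57 in females (adjusted p = 0.988).

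**Figure D3:**
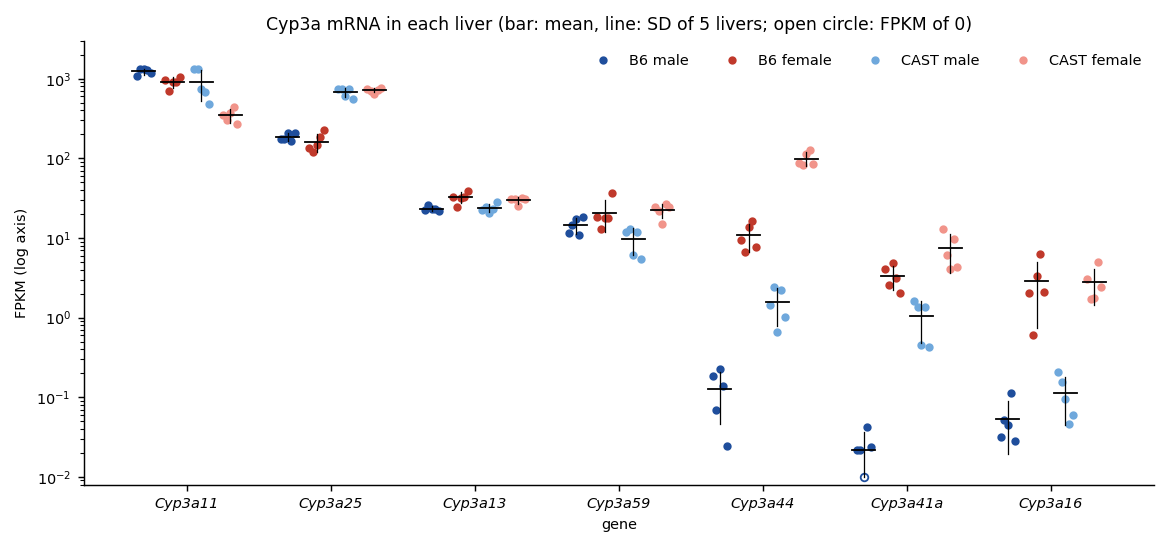
FPKM of the 7 Cyp3a genes with values above 0 (vertical axis, log scale) in each of the 20 livers, by group, with a point per liver, a bar for the group mean, a line for its SD and an open circle for an FPKM of 0. Cyp3a25 separates by strain, Cyp3a16, Cyp3a41a and Cyp3a44 separate by sex, and Cyp3a13 stays between 20.5 and 38.9.

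For Cyp3a16 and Cyp3a44 the deposited counts and the deposited FPKM did not move together, and this touches every test of the 2 genes. Each FPKM was turned back into reads with the library total and the gene's own scaling, and the counts were divided by these implied reads. In B6 male 4, Cyp3a44 had 349 counts where its FPKM implied 11 reads, in CAST male 3 it had 330 against 54, and in B6 male 1 it had 48 against 20. Cyp3a16 had 130 counts against 6 implied reads in B6 male 2, 84 against 3 in B6 male 3, and 53 against 7 in CAST male 1. Among livers with at least 20 counts, the counts exceeded the implied reads by over 1.5 times in 6 of 15 livers for Cyp3a16 and in 3 of 17 for Cyp3a44, and in none for the other 5 members, whose ratio spread between livers by 1.41 times for Cyp3a41a, 1.16 times for Cyp3a11 and at most 1.01 times for the others. Over all genes the ratio spread by over 1.5 times between livers for 30 of 14794 genes. The cause was not tested.

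On the reads implied by the FPKM, the same edgeR test gave larger sex differences for both genes. In B6 the log2 fold change of Cyp3a44 became -6.38 (adjusted p = 2.06e-10) and that of Cyp3a16 became -5.69 (adjusted p = 1.46e-06). In CAST they were -6.05 for Cyp3a44 and -4.59 for Cyp3a16, both still called. The strain difference of Cyp3a44 in males became -3.62 (adjusted p = 1.30e-08), a call for CAST, and its interaction -0.33 (adjusted p = 0.913). These fits were added after the data were seen.

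**Figure D4:**
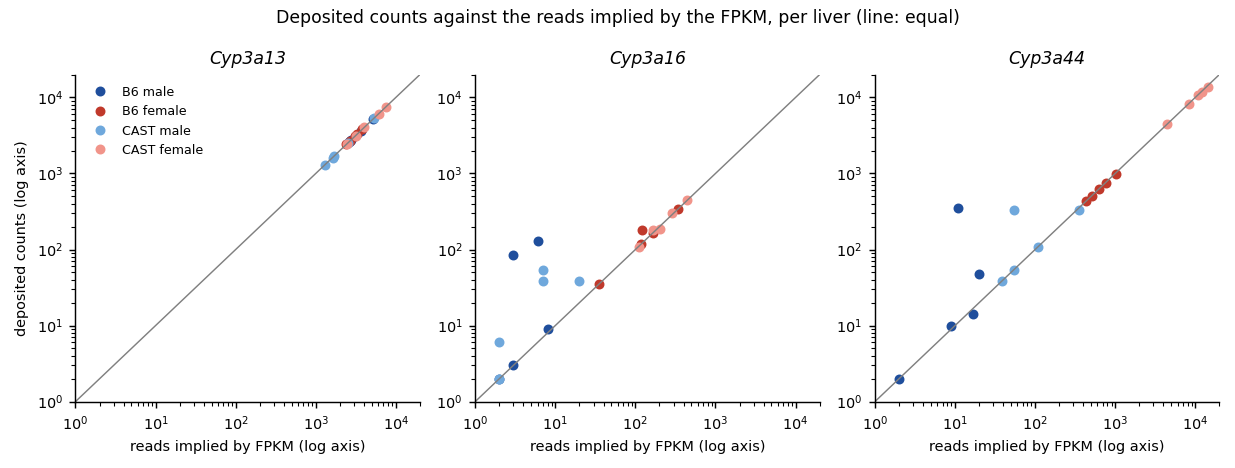
Deposited counts (vertical axis, log scale) against the reads implied by the deposited FPKM (horizontal axis, log scale) for Cyp3a13, Cyp3a16 and Cyp3a44, with a point per liver colored by group and a line of equal values. All livers lie on the line for Cyp3a13, while several male livers lie above it for Cyp3a16 and Cyp3a44, such as B6 male 4 at 349 counts of Cyp3a44 against 11 implied reads.

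Summed over Cyp3a16, Cyp3a41a, Cyp3a41b and Cyp3a44, the sex difference stood in both strains. The sum limits the effect of how reads are split among these 4, but not between them and Cyp3a11. Cyp3a11 shares 95.2% of coding bases with Cyp3a41a. Counts and FPKM also differed in the sum: B6 male 4 held 365 counts at an FPKM of 0.293, and B6 male 1 held 56 at 0.238. The summed FPKM was 0.238, 0.142, 0.270, 0.293 and 0.0763 in B6 males and 15.7, 9.76, 21.8, 25.7 and 11.9 in B6 females. It was 3.25, 3.96, 1.2, 3.64 and 1.5 in CAST males and 104, 90.0, 120, 140 and 92.0 in CAST females. No 2 groups overlapped in FPKM, while in TMM-scaled CPM B6 male 4 (21.2) lay within the CAST males (9.30 to 27.4). Female means were 83.2-fold above male means in B6 (17 ± 6.71 against 0.204 ± 0.092) and 40.3-fold in CAST (109 ± 21 against 2.71 ± 1.27). CAST was above B6 13.3-fold in males and 6.44-fold in females, and in TMM-scaled CPM, a measure of counts per library size, 3.06-fold and 5.81-fold. In CPM the female over male ratio was 13.5-fold in B6 (96.8 against 7.18) and 25.6-fold in CAST (562 against 22). In CPM, B6 male 4 carried much of the B6 male mean: without it that mean was 3.68, the ratio in B6 was 26.3-fold, near that in CAST, and CAST was above B6 5.97-fold in males. With the 4 copies summed into 1 gene, edgeR's fit of the counts gave a log2 male over female ratio of -3.77 ± 0.52 SE in B6 and -4.67 ± 0.22 in CAST, and an interaction of 0.91 ± 0.60.

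The receptors and liver factors known to act on Cyp3a genes were given as lists, and few of their members were called. Over all genes the shares called were 2.40% for sex in B6, 2.05% in CAST, 23.8% for strain in males, 24.4% in females and 2.28% for the interaction. Of 8 xenobiotic and steroid receptors, 1 was called for sex in each strain, Nr1i3 (CAR), which senses bilirubin and drugs, with a mean FPKM of 26.3 ± 11.3 and 56.8 ± 2.54 in B6 males and females, and 27.6 ± 5.77 and 54.2 ± 10.5 in CAST males and females. It was higher in females in B6 (log2 -1.09 ± 0.22, edgeR adjusted p = 0.00422) and CAST (-1.05 ± 0.13, adjusted p = 2.99e-05), with no overlap. Both differences lie near the fold threshold: the B6 call was lost in 2 of 24 alternatives (-0.91 without B6 male 2 and -0.98 without B6 male 4) and the CAST call in 7 of 24 (-0.95 to -0.98 in the 4 limma fits, -0.96 with library size alone and without CAST male 3, -0.97 without CAST female 4). For strain, 1 of the 8 was called in males, Vdr, whose mean FPKM was 0.0157 or less in every group and whose call was lost in 11 of 30 alternatives, 0 of 8 in females, and 0 of 8 for the interaction. Nr1i2 (PXR) had log2 fold changes of 0.06 for sex in B6 (adjusted p = 0.812) and -0.44 in CAST (adjusted p = 0.0149). The median of the receptors was 0.05 for sex in B6 and -0.03 in CAST, against 0.02 and -0.01 over all genes.

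Of 8 liver factors of Cyp3a genes, none was called for sex in either strain, for strain in males or for the interaction by edgeR's quasi-likelihood test. At an adjusted p under 0.05 alone, 2 were higher in B6 males than females (3.99% of all genes) and 1 was higher in CAST females than males (3.30%). Cebpb, a C/EBP factor of the acute-phase response, was called higher in CAST females than B6 females (log2 -1.02, adjusted p = 0.000149), with overlapping livers, and fell under the fold threshold in 14 of 33 alternatives (log2 -0.86 to -1.18 over all of them), among them DESeq2 and the fits without B6 female 3, 4 or 5 or CAST female 1 or 4. Among 5 electron transfer partners, Por, the reductase that supplies electrons to these enzymes, was called higher in CAST females than CAST males (log2 -1.31 ± 0.15, adjusted p = 1.24e-05) and no partner was called in the other 4 comparisons. Its mean FPKM was 31.9 ± 6.39 and 51.3 ± 6.52 in B6 males and females, and 36.3 ± 7.89 and 85.7 ± 18.4 in CAST males and females, and the sexes did not overlap in either strain.

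Of 13 other targets of PXR and CAR, 1 was called higher in males and 4 higher in females in B6, and 2 and 4 in CAST. For strain, 5 were called higher in B6 and 1 higher in CAST in males, and 3 and 0 in females, where 3 of 13 is near the 24.4% of all genes called. Cyp2b10, the classical CAR target, was higher in females with a log2 of -3.83 (adjusted p = 5.05e-06) in B6 and -5.33 (adjusted p = 3.62e-08) in CAST, and higher in B6 in males (3.28) and females (1.81). Single livers moved these Cyp2b10 values: for sex they were -4.56 in B6 without B6 male 2 and -7.03 in CAST without CAST male 2, and for strain in males 2.55 and 5.02 without the same livers. The strain call in males was lost by limma on log2(FPKM + 1) (0.48, adjusted p = 0.108). Cyp2c37, an arachidonic acid hydroxylase, was likewise higher in females in B6 (-2.05, adjusted p = 2.44e-05) and CAST (-2.94, adjusted p = 1.50e-09). Ugt1a1, which conjugates bilirubin, was higher in males in CAST (2.23, adjusted p = 9.77e-09) and had a log2 of -0.97 in B6 (adjusted p = 0.000220), with an interaction of -3.19 (adjusted p = 8.73e-10). The B6 difference of Ugt1a1 passed the fold threshold, higher in females, in 5 of 24 alternatives, each without 1 liver (B6 female 1 or 2, or B6 male 1, 3 or 5), down to a log2 of -1.06. In B6 Ces2a was higher than in CAST among males (1.27) and Abcc3 among females (1.14). Median log2 fold changes of this list were -0.28 for sex in B6, -0.10 in CAST, 0.55 for strain in males and 0.48 in females.

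Of 7 growth hormone dependent sex-biased regulators, 4 were called for sex in B6 and 2 in CAST, against 2.40% and 2.05% of all genes. The authors had reported Cux2 and Bcl6 as sex-biased in both strains, and Trim24 and Tox in B6, from these same livers. The counts were thus known beforehand and are not a test. Cux2, a female-specific activator and repressor of sex-biased liver genes, had a mean FPKM of 0.0108 and 2.94 ± 2.37 in B6 males and females, and 0.0115 and 4.24 ± 1.55 in CAST males and females, with a log2 of -7.93 (edgeR adjusted p = 2.35e-07) in B6 and -8.74 (adjusted p = 1.02e-10) in CAST (-9.40 without CAST male 1). Bcl6, a repressor of female-biased genes, was higher in males in B6 (1.83, adjusted p = 0.0120) and CAST (1.51, adjusted p = 0.0151), with overlapping livers, and each call was lost in 3 of 24 alternatives, all of them limma fits without a filter. Trim24, a corepressor, and Tox, an HMG-box factor, were called higher in females in B6 (-1.97 and -2.29). Both passed for the interaction, at -2.08 (adjusted p = 1.89e-07) and -3.72 (adjusted p = 0.00223), as did Stat5a, a signal transducer of growth hormone, at -0.70 (adjusted p = 0.0204). The interaction of Tox was lost without CAST male 2 (-2.82, adjusted p = 0.108), and its B6 call by limma on log2(FPKM + 1) (-0.94, under the fold threshold). The median of the list was -0.43 for sex in B6 and 0.19 in CAST.

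The genes whose pattern over the 20 livers was most like that of each member were named by the distance between gene-centred log2(FPKM + 0.1) values, as a root mean square over the livers among 9056 genes. Cux2 was nearest to Cyp3a16 (0.77), followed by the nucleotidase gene Nt5e (0.85). Cyp17a1, a steroid hydroxylase, was nearest to Cyp3a41a (0.73), and Sult2a5 and Cyp2a4, both of steroid metabolism, were nearest to Cyp3a44 (1.30 each). The lncRNA ncRNA_intra_chr7_6001 (0.85) came next for Cyp3a16, Acnat2 (0.97) and Nt5e (1.08) followed for Cyp3a41a, and Cyp17a1 (1.48) for Cyp3a44. Ugt2b5 (0.33), Gstm1 (0.39) and Adck5 (0.39) were nearest to Cyp3a11, and Tcp11l2 (0.19), Dnajc21 (0.21) and Tmem57 (0.21) to Cyp3a25. For Cyp3a59 they were Tk1 (0.33), Crls1 (0.34) and Sult1a1 (0.37), and for Cyp3a13 Jup (0.14), Psap (0.15) and Ptdss1 (0.15). Distances are not comparable between members, since a member with a wide range leaves room for a larger distance.

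Of the 6 protein-coding genes nearest to the cluster in mm9, 3 on each side, none was called for sex by edgeR's quasi-likelihood test in either strain, over the 6 tested in B6 and the 5 tested in CAST, and none had an adjusted p under 0.05. With 2.40% and 2.05% of all genes called, a count of 0 is near the background. For strain, where 23.8% and 24.4% of all genes were called in males and females, Zfp655, a zinc finger gene 97973 bases to the left, was called higher in B6 in males (log2 5.37, adjusted p = 1.76e-18) and females (5.35, adjusted p = 6.07e-19), with a mean FPKM of 3.30 and 3.45 in B6 males and females and 0.0833 and 0.0814 in CAST. Rnf6, Zkscan5 and Cdk8 were not called for strain, with log2 fold changes of -0.23, -0.38 and 0.09 in males and -0.31, -0.53 and -0.14 in females. Zkscan14, at a mean FPKM of 1.09 and 1.08 in B6 males and females, was listed at 0 in CAST males and at 0.003 in CAST females and was not in the fit of the 4 groups.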

How the data were processed

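For B6 the authors aligned reads to mm9 with TopHat, for CAST to mm9 rewritten with CAST variants, and gave the uniquely mapped primary reads to genes by exon overlap with featureCounts. The deposited counts are unnormalized whole reads, 1 table per strain, and the FPKM values that the authors deposited are reads relative to exon length and to the size of the library. The FPKM could not be derived from the deposited counts for every gene and liver (among the members most of all Cyp3a16 and Cyp3a44, and to a smaller extent Cyp3a41a and Cyp3a11). The log2 fold changes and p-values of the authors' own comparison in the count tables were not used, nor were 24 further columns of scaled counts or group medians. Groups follow the library titles.

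Tests of counts used edgeR 4.0.16 (R 4.3.3; TMM, quasi-likelihood test, all genes with any read, Benjamini-Hochberg adjustment), on the 10 livers of a strain for sex and on all 20 livers for strain and the interaction. Genes listed for 1 strain with FPKM above 0 in the other, 2028 in all, were left out of the fit of the 20 livers. Calls needed a difference of more than 2-fold with an adjusted p under 0.05, and for the interaction an adjusted p under 0.05. The p-values measure the spread between mice of a group. FPKM is given as mean ± SD, with no filter. Distances between gene patterns used log2(FPKM + 0.1). The fits were tested on simulated data. Totals of 7969482 to 35328573 counts per liver set the precision of low genes.

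Alternatives were edgeR with library size alone, with the size factors of DESeq2, with filterByExpr or with the exact test, DESeq2 1.42.0 itself, thinned counts, limma 3.58.1 on log2(FPKM + 0.1), log2(FPKM + 1) and log2(FPKM + 0.01) or with a mean FPKM of at least 0.1, the 4 close copies summed, no fold threshold, a replicate block and each liver left out. Added after the data were seen were the reads implied by FPKM, the block with filterByExpr, and the summed copies in CPM without B6 male 4. The members and all lists were chosen with earlier results of these data known. The named genes are every Cyp3a gene, up to 5 called members of each pathway list with the smallest adjusted p, the neighbours of the cluster with a mean FPKM of at least 1 in a group, and the 3 genes nearest to each member by distance; Nr1i2 was added after its values were seen. Gene positions, coding identity and 50-base stretches are from mm9, and upstream sequences from RefSeq on GRCm38.p6. The sources used here do not state whether the counting used strand, so reads of overlapping genes may be shared. Other steps used Python 3.11.15, pandas 2.3.3, SciPy 1.17.1 and Biopython 1.88.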

Additional observations from a re-analysis of the deposited data

Results flagged for a closer look

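In 5 of 40 combinations of member, unit and group tested with Dixon's criterion, 1 liver stood apart from the other 4, where chance gives about 1 in 20. Cyp3a13 had an FPKM of 26.1 in B6 male 2 against 22 to 23.1 in the other B6 males, and 25 in CAST female 3 against 30.4 to 31.8. Cyp3a16 had an FPKM of 0.114 in B6 male 4 against 0.0280 to 0.0517. Cyp3a59 had an FPKM of 36.3 in B6 female 5 against 13 to 18.5. Cyp3a44 reached 20.3 CPM (TMM-scaled) in B6 male 4 against 0.120 to 2.16 in the other B6 males, the liver in which its deposited counts exceeded the reads implied by its FPKM.

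The sex difference differed between the strains by the interaction term of edgeR's fit for Cyp3a41a (-3.90, adjusted p = 0.000212) among the members. Among the genes named from the lists it did for Ugt1a1 (-3.19, adjusted p = 8.73e-10), Trim24 (-2.08, adjusted p = 1.89e-07), Tox (-3.72, adjusted p = 0.00223) and Stat5a (-0.70, adjusted p = 0.0204). Each value is the log2 male over female ratio in B6 minus that in CAST. For Ugt1a1 the mean FPKM was 29.2 and 58.2 in B6 males and females, and 20.3 and 4.08 in CAST males and females. For Trim24 it was 1.07, 4.24, 5.97 and 5.23 in the same order, and for Tox 0.294, 1.49, 0.0342 and 0.0109.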

How the results depend on the processing

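The numbers of members called, 3 for sex in B6, 5 in CAST, 2 for strain in males, 4 in females and 1 for the interaction, and the values of the sum of the close copies and of the Cyp3a11 share stayed within 1.5 times or 1 SD under 186 of 198 alternatives. With numbers this small, 1.5 times takes in a lost or gained call. A fall from 3 to 2 in B6 (DESeq2, without B6 female 3 or 4) thus lies within it, as does a rise from 2 to 3 for strain in males. The alternatives also include leaving out livers of the sex not compared. With the 4 close copies summed into 1 gene, which lowers the number of members, the counts were 1 in B6, 3 in CAST and 0 for the interaction. Without a fold threshold they were 5 for sex in B6 and 4 for strain in males. With DESeq2 and with library size alone, 2 members passed for the interaction (Cyp3a11 and Cyp3a41a), and leaving out 1 liver gave 1 to 2 (2 without B6 female 5, CAST female 4 or CAST male 5). The log2 male over female ratio of the summed close copies in B6 was -6.38 in FPKM, -3.75 in TMM-scaled CPM and -4.72 in CPM without B6 male 4 (added after the data were seen). No member or named gene reversed a call. Of 1014 member values under alternatives, 931 kept their side of the threshold and direction, 8 lost a call, 14 gained one and 61 turned sign without a call on either side. The causes were not tested.

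Same-numbered livers of males and females deviated together with a correlation of -0.03 to 0.27 (mean 0.06) in B6 and -0.06 to 0.35 (mean 0.14) in CAST over 12634 genes, and 3 and 4 of 10 livers correlated best with their own number. Between the strains the range was -0.11 to -0.01 in males and 0.03 to 0.15 in females. The numbers were therefore not taken to pair the livers. Per the study's methods the 4 groups shared collection days, but no source used here ties a day to a replicate number. With a replicate block the numbers of members called were 3, 5, 3, 4 and 1 in the order above, the added call being Cyp3a44 for strain in males (log2 -1.79, adjusted p = 0.00743), and with the block and filterByExpr 2, 5, 3, 4 and 1, Cyp3a16 in B6 being lost (adjusted p = 0.0754). In the block fits of a single strain without filterByExpr adjusted p-values were as small as 3.54e-214 for Cyp3a44 and 2.87e-286 for Cyp3a41a in B6 and printed as 0 for Cyp3a44 in CAST, so their calls are weaker evidence than those with the filter.

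Over all genes, the calls for sex in B6, sex in CAST, strain in males and strain in females, 617, 508, 6146 and 6281 in edgeR, were 317, 292, 3651 and 3693 by limma on log2(FPKM + 0.1), 592, 435, 6431 and 6361 with a pseudocount of 0.01, 151, 148, 1710 and 1709 with a pseudocount of 1, and 343, 321, 3331 and 3387 with a mean FPKM of at least 0.1. For the interaction 588 genes passed (372 above 0, 216 below), against 1161 with DESeq2 and 492 (192 above, 300 below) with library size alone. Depth limits Cyp3a16 and Cyp3a41a in B6 males, where some livers held 2 to 7 counts.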

Other observations

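Cyp3a57, the gene at the left end of the cluster and outside the 8 genes described, was the lowest of the Cyp3a genes with reads in females. Its mean FPKM was 0.0335 ± 0.0213 and 0.0563 ± 0.0345 in B6 males and females, and 0.341 ± 0.173 and 0.247 ± 0.071 in CAST males and females, from 0 to 6 counts per B6 liver and 7 to 39 per CAST liver. By edgeR's quasi-likelihood test it was higher in CAST in males (log2 -3.13, adjusted p = 5.37e-06) and females (-2.24, adjusted p = 0.000402), and not called for sex in B6 (-0.61, adjusted p = 0.684) or CAST (0.30, adjusted p = 0.693). Both strain calls fell under the fold threshold by limma on log2(FPKM + 1) (1.29-fold in males, 1.18-fold in females).

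Markers of other cells of the liver were low beside those of hepatocytes. The summed FPKM of 4 cholangiocyte markers was 1.08 to 3.25 and 1.14 to 2.08 in B6 males and females, and 0.586 to 0.831 and 0.577 to 0.883 in CAST males and females, with Krt7 and Sox9 called higher in B6 than CAST males, Krt7 called higher in B6 than CAST females, and Sox9 called higher in B6 males than B6 females. That of 4 markers of small intestine epithelium was 13.6 to 29.4 over all livers. Of the red blood cell markers Hbb-b1 and Hba-a1 were listed at 0 in every liver, and Alas2, the first enzyme of heme synthesis in red cells, was 26.9 to 36.5 and 2.83 to 5.42 in B6 males and females, and 1.78 to 3.25 and 1.09 to 2.03 in CAST males and females. It was higher in B6 males than in B6 females (log2 2.81, edgeR adjusted p = 2.70e-10), with an interaction of 2.17 (adjusted p = 9.76e-06). The 5 pericentral hepatocyte markers summed to 1166 to 1986 and 1867 to 2113 in B6 males and females, and 1518 to 1715 and 1767 to 2123 in CAST males and females. Periportal markers summed to 1321 to 2065, 1249 to 1606, 1667 to 1767 and 1781 to 2259 in the same order. Of 5 periportal markers, 1 was called higher in CAST than B6 females (10.4% of all genes). At an adjusted p under 0.05 alone, 4 were higher in CAST females and 0 in B6 females. For the interaction 1 of 5 passed (2.28%). Of 5 pericentral markers, 2 in B6 and 3 in CAST were higher in females at that threshold (3.56% and 3.30%), and 0 in males. The part of these cells in the Cyp3a results was not tested.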
